A study of Mus musculus with 2 samples.

Results

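The insulin-like growth factor (IGF) genes described here are the ligand Igf1, its receptor Igf1r and 6 genes of IGF-binding proteins, Igfbp2 to Igfbp7. They were chosen by gene name, with earlier results of these data known, and are 8 of the 28380 genes listed in the 2 libraries. IGF1 is a secreted hormone and local growth factor that signals through the tyrosine kinase receptor IGF1R. In blood and matrix most of it is held by binding proteins, which lengthen its life, keep it from the receptor and give it up when proteases such as PAPP-A cut them. In bone, IGF1 is known for its action on growth plate chondrocytes and osteoblasts, and IGFBP5 is a binding protein that is stored in the mineralised matrix.

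The study overexpressed the transcription factor gene Dach1 in endothelial cells (ECs) and profiled single cells of long bones, as 1 library for each of 2 groups. Cells came from the femur and tibia of male and female C57BL/6 mice aged 30 postnatal days, whose epiphyses had been cut off and whose cells had been depleted of CD45 and CD117 carriers on microbeads. The Control library came from Dach1OE +/f mice, a label that gives the inducible Dach1 allele and no Cre, and the Dach1OE library from Apj CreERT2 - Dach1OE +/f mice. Both groups received tamoxifen, by the study's methods shortly after birth, and each library pooled a pair of mice. The study's methods also speak of Cre-negative controls, while its drawing of the cross shows a control with the Cre, so whether the Control cells carried Cre was not settled here, and an effect of Cre itself cannot be told apart from that of Dach1. Cre activity from Apj (Aplnr) reaches only cells that express that gene or descend from such cells, so the Dach1OE library may hold both recombined and unrecombined ECs. With 1 library a group there is no spread between replicates, no test was possible, and each interval given is a 95% interval for counting error alone.

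The tables held 143986818 UMIs (molecules counted once by their identifier) in 28720 Control cells and 166999989 UMIs in 32028 Dach1OE cells. Cells with 500 to 6000 genes and under 25% mitochondrial UMIs were kept, 26466 and 29317, with medians of 3793.5 and 4055 UMIs. The libraries shared 879 cell indices among the kept cells, and without those cells 151 of 154 log2 ratios of the 8 genes stayed inside their counting intervals. Dach1 stood at 5.69 CPM in Control and 184 CPM in Dach1OE in ECs, and at 3.22 and 183 CPM in sinusoidal ECs, which matches the labels. In haematopoietic cells Dach1 stood at 28.9 and 29.4 CPM. Cells were assigned to endothelial, stromal, chondrocyte, mural, fibroblast and haematopoietic classes from marker lists, and then to subtypes, of which 18 gates were compared. The sinusoidal list held Stab2, Flt4 and Gpr182, which the study reports as lower in Dach1OE ECs, and the arterial list Sox17, reported as higher. In its own gate the sinusoidal list stood at 7244 CPM in Control and 6306 CPM in Dach1OE, and the arterial list at 3354 and 5153 CPM. An EC gate may thus hold unlike cells in the 2 libraries. The cycling stromal gate was led by haemoglobin genes and was not compared. ECs held a median of 10 of the 12 EC markers in Control, and between 28.8% and 41.2% of fibroblast and haematopoietic cells lay at the limit of their gate.

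Levels are given as CPM, the UMIs of a gene per 1000000 UMIs summed over the cells of a gate. The pipeline counted intronic as well as exonic reads, and genes differ in length, so levels are compared between gates and libraries and not between genes. In GENCODE annotation of the GRCm38 build, Igf1 lies at chr10:87858265-87937042, plus strand, and Igf1r at chr7:67952827-68233668, plus strand. Igfbp3 lies at chr11:7206086-7213923, minus strand, Igfbp4 at chr11:99041244-99054392, plus strand, Igfbp6 at chr15:102144362-102149511, plus strand, and Igfbp7 at chr5:77349240-77408041, minus strand. Igfbp2 (chr1:72824503-72852474, plus strand) and Igfbp5 (chr1:72857932-72874884, minus strand) are neighbours tail to tail, with 5457 bases and no protein-coding gene between them. The antisense gene Igf1os overlaps Igf1, and Polr2b and the antisense Gm34648 overlap Igfbp7 on the opposite strand.

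Promoters are shown for Igfbp5, whose EC level differed most between the libraries, for its neighbour Igfbp2, whose UMIs lay almost all in ECs, and for Igfbp4, whose pattern across gates was the most like that of Igfbp5 among the 8 genes. Each is the 250 bases before a RefSeq start in GRCm38.p6, written on the strand of the gene, and capitals mark matches to the TATA box written TATAAA, the CCAAT box, the GC box written GGGCGG, the E-box written CANNTG or the forkhead motif written TGTTTAC on either strand. The windows are chr1:72874866-72875115 on the minus strand, chr1:72824230-72824479 on the plus strand and chr11:99040994-99041243 on the plus strand.
Igfbp5 promoter: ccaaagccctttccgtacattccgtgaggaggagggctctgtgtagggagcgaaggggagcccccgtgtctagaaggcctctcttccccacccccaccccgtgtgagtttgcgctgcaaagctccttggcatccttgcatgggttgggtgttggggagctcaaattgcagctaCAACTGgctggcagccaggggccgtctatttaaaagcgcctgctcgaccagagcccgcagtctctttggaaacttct
Igfbp2 promoter: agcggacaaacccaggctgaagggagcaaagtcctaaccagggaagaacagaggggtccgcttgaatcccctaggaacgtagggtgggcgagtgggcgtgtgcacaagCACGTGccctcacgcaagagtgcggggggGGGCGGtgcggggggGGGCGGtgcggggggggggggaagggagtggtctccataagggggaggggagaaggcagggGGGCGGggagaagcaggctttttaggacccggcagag
Igfbp4 promoter: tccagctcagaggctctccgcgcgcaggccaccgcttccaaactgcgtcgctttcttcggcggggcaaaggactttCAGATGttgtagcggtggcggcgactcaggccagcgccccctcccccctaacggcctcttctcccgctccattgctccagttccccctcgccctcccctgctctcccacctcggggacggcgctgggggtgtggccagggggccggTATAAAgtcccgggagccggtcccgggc
The Igfbp5 window holds 1 E-box, 10 CpG and 58.8% G and C. The table has 2 starts for Igfbp2, of which the first is printed. Its window holds 3 GC boxes, 1 E-box, 14 CpG and 67.2% G and C, while the window of the second start holds 0 GC boxes, 1 E-box, 11 CpG and 56.4% G and C. The Igfbp4 window holds 1 TATA box, 1 E-box, 22 CpG and 69.2% G and C. Of the 32851 mouse promoters of that length, 66.2% hold an E-box, 32.7% a GC box, 33.8% a CCAAT box, 12.4% a TATA box and 3.17% the forkhead motif, and their medians are 52.4% G and C and 6 CpG.

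The ligand gene Igf1 was highest in diaphyseal stromal cells, the Adipoq- and Lepr-expressing cells around the marrow vessels, at 1258 CPM (1232 to 1285) in Control and 1289 CPM (1246 to 1333) in Dach1OE. Metaphyseal stromal cells followed at 898 and 718 CPM, and then fibroblasts (587 and 528 CPM), pericytes (570.0 and 511 CPM) and septoclasts (496 and 505 CPM), the intervals of neighbours among these last gates overlapping. Osteoblasts held 12.1 and 11.3 CPM, and haematopoietic cells 7.75 and 6.62 CPM. The stromal class held 66.2% of all Igf1 UMIs in Control and 51.2% in Dach1OE. Igf1r, the receptor, was spread more evenly and was highest in haematopoietic cells, at 247 CPM (238 to 256) in Control and 269 CPM (259 to 279) in Dach1OE. Its lowest level was in osteoblasts (21.1 and 19.6 CPM).

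**Figure D1:**
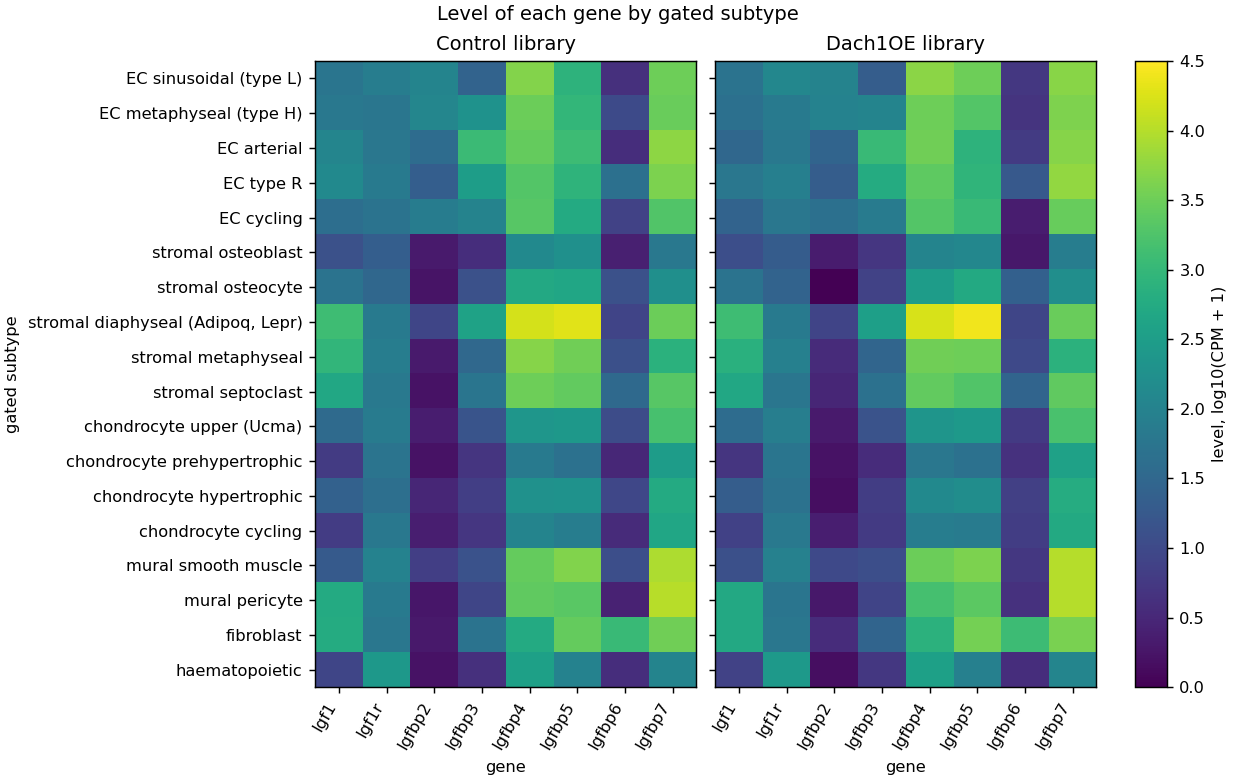
Colour gives the level as log10(CPM + 1) of each of the 8 genes (columns) in each of the 18 gated subtypes (rows), Control on the left and Dach1OE on the right. Igfbp4 and Igfbp5 are brightest in diaphyseal stromal cells, Igfbp7 in the mural gates, Igfbp3 among ECs in the arterial gate and Igfbp6 in fibroblasts.

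Among the binding protein genes, Igfbp2 was held by ECs, with 91.2% of its UMIs in Control and 88.8% in Dach1OE. Type H (metaphyseal) ECs held 114 and 96.1 CPM and sinusoidal (type L) ECs 105 and 102 CPM with overlapping intervals, while all gates outside ECs were at or below 9.02 CPM. A UMI of Igfbp2 was seen in 7 of 1918 haematopoietic Control cells. Igfbp3, which carries IGF in blood together with the acid-labile subunit, was highest in arterial ECs, at 1150.3 CPM (1105 to 1197) in Control and 1134 CPM (1106 to 1163) in Dach1OE. It was next highest in diaphyseal stromal cells (384 and 341 CPM) and type R ECs (321 and 583 CPM), the latter order reversing between the libraries. Arterial ECs thinned to 1000 UMIs each held an Igfbp3 UMI in 44.5% of Control and 42.7% of Dach1OE cells, against 0.473% and 0.254% of haematopoietic cells.

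Igfbp4, a binding protein that is cut by PAPP-A, was highest in diaphyseal stromal cells at 16053 CPM (15959 to 16148) in Control and 16745 CPM (16588 to 16903) in Dach1OE. Sinusoidal ECs held 4542 and 5156 CPM and metaphyseal stromal cells 4827 and 3402 CPM. Igfbp5 was also highest in diaphyseal stromal cells, at 20143 CPM (20037 to 20249.9) in Control and 25230.4 CPM (25038 to 25424) in Dach1OE, and second in smooth muscle cells, at 4378 and 4157 CPM. Sinusoidal ECs were well below the metaphyseal stromal cells in Control (797 against 3334 CPM) and overlapped them in Dach1OE (3172 against 3266 CPM). Igfbp6, which prefers IGF2 to IGF1, was a fibroblast gene here, at 1111 CPM (1065 to 1159) in Control and 1215 CPM (1159 to 1272) in Dach1OE. No other gate exceeded the 44.8 CPM of type R ECs in Control. Igfbp7, which binds IGF weakly and is laid down in vessel walls, was highest in the mural gates, at 10460.1 and 9827 CPM in pericytes and 8883 and 9994 CPM in smooth muscle cells, whose intervals overlapped in Dach1OE. Igfbp3 was among the 10 leading genes by fold of the arterial gate and Igfbp6 of the fibroblast gate, although neither was a gate marker.

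Over the 36 profiles (18 gates in each library), the genes whose log2 levels ran most like each member were, for Igf1, Abca8a (r = 0.923), Lamp2 and Fbn1. For Igf1r they were Ero1l (r = 0.874), Mapk14 and Mark2, for Igfbp2 D030007L05Rik (r = 0.975), Fam167b and Adh6b, for Igfbp3 Slc6a6 (r = 0.924), Eogt and Tmem44, and for Igfbp4 Atxn7l3b (r = 0.945), Abl1 and Zfp36l1. For Igfbp5 they were Pgrmc1 (r = 0.930), Mpdz and Hmgn3, for Igfbp6 Medag (r = 0.951), Lrrn4cl and Crabp2, and for Igfbp7 Rras (r = 0.931), Rock2 and Ehd2. Among the members themselves, Igfbp4 and Igfbp5 were the most alike (Pearson r = 0.889), followed by Igf1 and Igfbp5 (0.796). These coefficients are descriptions over gates that share libraries and depth.

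In ECs of the Dach1OE library Igfbp5 was higher than in Control. The EC class held 871 CPM (861 to 881) in Control and 2108 CPM (2093 to 2123) in Dach1OE (log2 ratio 1.27, 1.26 to 1.29). Sinusoidal ECs carried the largest difference, at 797 CPM (784 to 809.7) in Control and 3172 CPM (3138 to 3206) in Dach1OE (log2 ratio 1.99, 1.97 to 2.02). Type H ECs held 966 and 1955 CPM (log2 ratio 1.02, 0.97 to 1.06), and in cycling ECs 560.1 and 1116 CPM (log2 ratio 0.99, 0.92 to 1.07). Type R ECs, gated on markers of the capillaries of remodelling bone, held 849 and 874 CPM (log2 ratio 0.04, -0.08 to 0.16). Arterial ECs held 1227 and 825 CPM (log2 ratio -0.57, -0.64 to -0.50). The ratios of type R and arterial ECs were both higher among cells without Adipoq or Lepr UMIs, and those values are given beside the stromal markers. The EC class as a whole also changed its makeup, with 55% sinusoidal cells in Control and 31.8% in Dach1OE, and with every subtype weighted equally the EC log2 ratio of Igfbp5 was 0.91. ECs of no named subtype made up 9.93% and 17.2%, and a Scgb3a1-positive EC gate, not compared, held 1 and 140 cells. In ECs of no named subtype Igfbp5 stood at 1409 CPM in Control. In Dach1OE it stood at 3503 CPM in those with a Dach1 UMI and 2669 CPM in those without. ECs held 13.1% of all Igfbp5 UMIs in Control and 35.3% in Dach1OE.

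**Figure D2:**
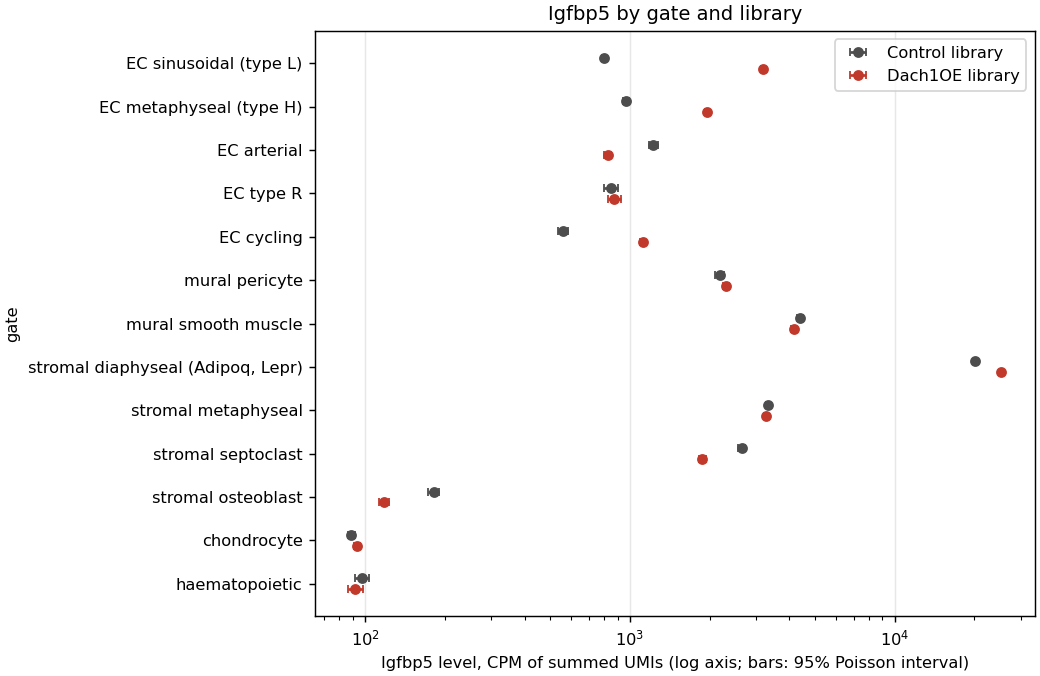
Igfbp5 level in CPM (log axis) by gate, Control in grey and Dach1OE in red, with 95% Poisson intervals. The libraries lie far apart in sinusoidal, type H and cycling ECs and close together in type R ECs, pericytes, chondrocytes and haematopoietic cells.

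Haematopoietic cells, taken as the level that free RNA may leave, held 97.2 CPM of Igfbp5 in Control and 92 CPM in Dach1OE. Whether free RNA leaves more in ECs was not tested, and markers of diaphyseal stromal cells in ECs are given below. After thinning each cell to 1000 UMIs, an Igfbp5 UMI was seen in 29.4% of Control and 64.4% of Dach1OE sinusoidal ECs, against 4.73% and 5.54% of haematopoietic cells. Unthinned, the shares were 46.5% and 77.5% in sinusoidal ECs (median 2929 and 2735.5 UMIs) and 14.8% and 15.1% in haematopoietic cells (median 4694 and 4227.5 UMIs). Thinning left out 85 and 72 sinusoidal ECs and 17 and 21 haematopoietic cells that were shallower. The median sinusoidal EC held 0 Igfbp5 UMIs per 10000 in Control and 14.8 in Dach1OE. Shares with an Igfbp5 UMI were also higher in type H ECs (29.6% and 51.2%, thinned).

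Within the Dach1OE library, sinusoidal ECs were split by whether a Dach1 UMI was seen, with Dach1 left out of the totals. Igfbp5 stood at 4059.8 CPM in cells with a Dach1 UMI and 2544 CPM in cells without one (log2 ratio 0.67, 0.64 to 0.71), and both were above the 797 CPM of Control. Cells with a Dach1 UMI were deeper, and in cells of 2000 to 6000 UMIs the levels were 4095 and 2642 CPM (log2 ratio 0.63, 0.59 to 0.67). Depth still differed in that window, with medians of 3531 and 2943.5 UMIs. A cell without a Dach1 UMI may still express the gene, since detection depends on depth. A UMI was seen in 1136 of the 3238 sinusoidal ECs of Dach1OE that were split, and in 15.8% after thinning. Per cell, the median was 25.5 Igfbp5 UMIs per 10000 with a Dach1 UMI and 9.65 without. Type H ECs gave 2480.2 CPM in cells with a Dach1 UMI and 1597 CPM in cells without one (log2 ratio 0.63, 0.59 to 0.68), and type R ECs 1154 and 679.9 CPM (log2 ratio 0.76, 0.60 to 0.92). In cells of 2000 to 6000 UMIs the log2 ratio was 0.61 in type H and 0.67 in type R ECs. Median depth there was 3581 and 3194 UMIs in type H and 3258 and 3161 UMIs in type R ECs. Arterial ECs held 771 and 881 CPM (log2 ratio -0.19, -0.28 to -0.11), but 881 and 852 CPM in cells of 2000 to 6000 UMIs (log2 ratio 0.05, -0.06 to 0.16), so no direction was read there.

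**Figure D3:**
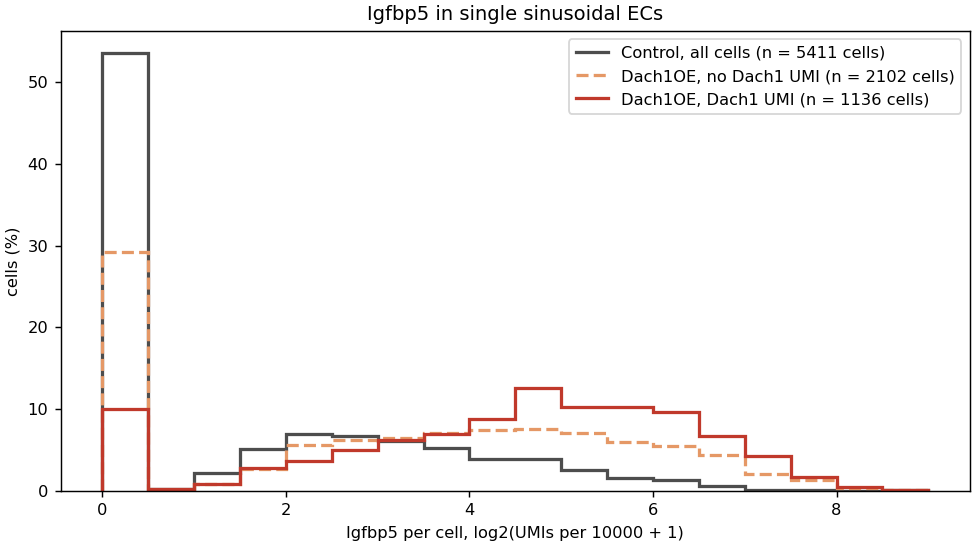
Percent of sinusoidal ECs (vertical axis) by Igfbp5 per cell as log2(UMIs per 10000 + 1), in bins of 0.5. Control (5411 cells) has its main peak at 0, Dach1OE cells without a Dach1 UMI (2102 cells) lie between, and Dach1OE cells with one (1136 cells) reach furthest to the right.

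Igfbp5 was highest in diaphyseal stromal cells, so their markers were measured in the same gates. The summed level of 7 diaphyseal markers (Adipoq, Lepr, Lpl, Hp, Pparg, Il7 and Cbln1) in sinusoidal ECs went from 1328 to 1040.1 CPM and Igfbp5 from 797 to 3172 CPM, with 0 of 7 markers at 0 in either library. The 10 mural markers went from 332 to 469 CPM in that gate, against 43508 and 39998 CPM in pericytes themselves. In type H ECs the same 10 went from 511 to 819 CPM and the 7 diaphyseal markers from 586 to 396 CPM. The part of these markers in the Igfbp5 differences was not tested. In sinusoidal ECs without a UMI of Adipoq or Lepr, Igfbp5 stood at 688 and 3142 CPM (log2 ratio 2.19). In arterial ECs the same restriction turned the sign, from -0.57 to 0.19, and the 7 diaphyseal markers there had stood at 1357 CPM in Control and 340.3 CPM in Dach1OE. In type R ECs the 7 markers stood at 1147 and 582 CPM, and Igfbp5 stood at 571 and 734 CPM without Adipoq or Lepr UMIs (log2 ratio 0.36) and at 485 and 1010.2 CPM without Cxcl12 UMIs as well (log2 ratio 1.06). These subsets were unlike in size. Cells without Adipoq or Lepr UMIs were 47.3% of Control and 76.7% of Dach1OE type R ECs, and cells without Cxcl12 UMIs as well were 27.5% and 26.7%. Cxcl12 is also known from ECs themselves, arterial ECs among them. Of 12 alternatives, 9 kept the sign of the type R ratio of Igfbp5, with a range from -0.28 to 1.06, so no direction was read there.

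Of the 8 genes, Igfbp3 and Igfbp5 were higher by 1.5-fold or more in Dach1OE ECs and Igf1 and Igfbp6 lower. In ECs without Adipoq, Lepr or Cxcl12 UMIs 1 of these 4 calls was left, Igfbp5 (1.65). Igfbp3 turned to -0.21, and Igf1 and Igfbp6 were -0.48 and -0.12. That restriction kept 31.5% of Control and 20.6% of Dach1OE arterial ECs, in which Igfbp3 stood at 777 and 738 CPM. The part of the arterial cells left out in the turn of Igfbp3 was not tested. Without Adipoq or Lepr UMIs alone 2 calls were left, Igfbp3 (0.68) and Igfbp5 (1.51). The share of all genes past the fold was not taken in these subsets of ECs. Over all 14317 genes tested in ECs, 7.17% were higher and 6.73% lower by that fold, and the median log2 ratio was 0.14 over the 8 genes and 0.04 over all. In sinusoidal ECs alone 3 of the 8 were higher, Igf1r, Igfbp5 and Igfbp7, and none was lower by that fold, against 5.55% and 4.61% of 12244 genes. The receptor Igf1r stood there at 80.4 CPM (76.4 to 84.5) in Control and 122 CPM (115 to 129) in Dach1OE (log2 ratio 0.60, 0.49 to 0.71), just past the fold and just under it with TMM scaling (0.57), and at 57.3 and 67.7 CPM in type H ECs (log2 ratio 0.24, 0.05 to 0.44). Igfbp7 stood at 3266 CPM in Control and 5033 CPM in Dach1OE (log2 ratio 0.62, 0.61 to 0.64) and was also higher in type H (0.52), type R (0.54) and cycling ECs (0.60), with arterial ECs at 5384 and 4861 CPM (log2 ratio -0.15, -0.18 to -0.12). Its sinusoidal ratio was 0.88 in Xist cells and 0.44, under 1.5-fold, in Y-linked cells. In ECs of no named subtype Igfbp7 stood at 2327 CPM in Control. In Dach1OE it was at 4848 CPM in those with a Dach1 UMI and 4167 CPM in those without. Igfbp7 was highest in mural cells, and the 10 mural markers stood at 332 and 469 CPM in sinusoidal, 511 and 819 CPM in type H, 1306 and 1356 CPM in type R and 322 and 591 CPM in cycling ECs, a part in the Igfbp7 ratios that was not tested. Sinusoidal ECs with a Dach1 UMI held more Igfbp7 than those without (5854 and 4453 CPM) and more Igf1r (145 and 106 CPM).

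**Figure D4:**
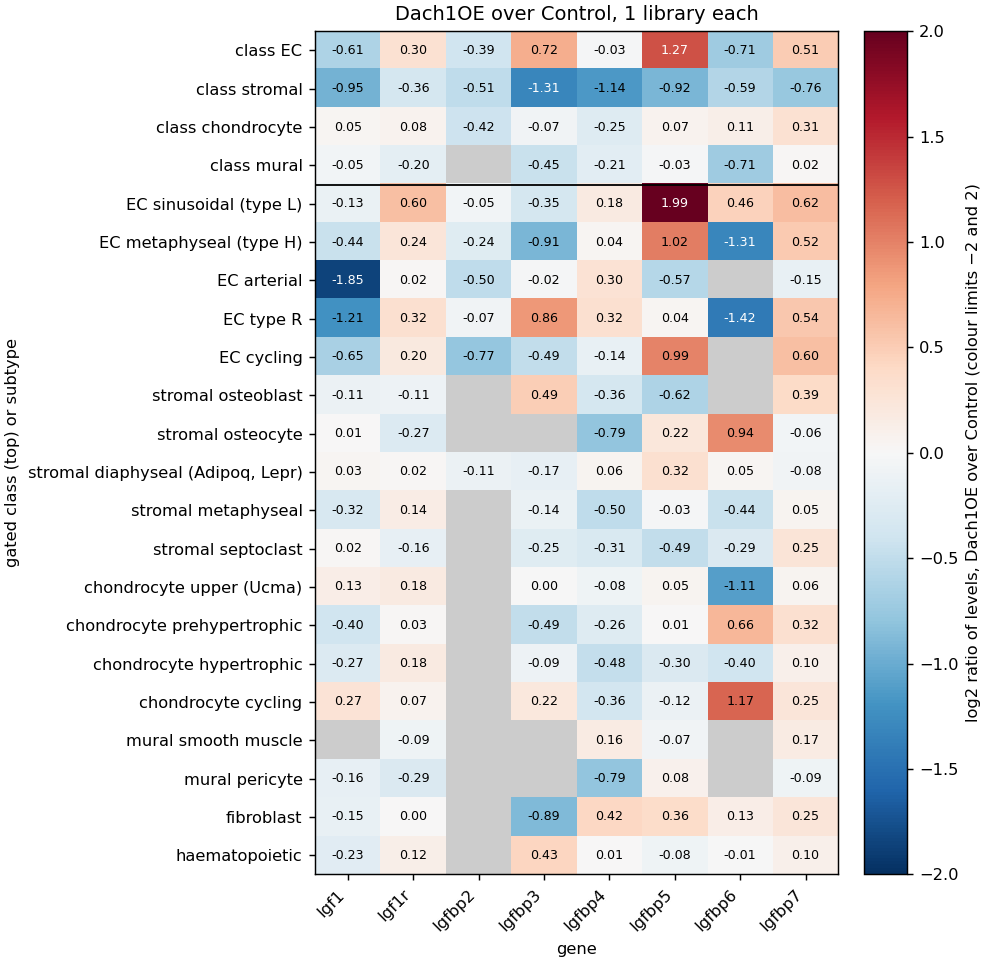
Each cell gives the log2 ratio of levels, Dach1OE over Control, for a gene (columns) in the 4 main classes (top rows) and the 18 subtypes. Colour runs from blue (lower in Dach1OE) to red (higher), and grey marks fewer than 50 UMIs. Igfbp5 is the deepest red in sinusoidal ECs (1.99), and the stromal class row is blue throughout while its diaphyseal row is near 0 for most genes.

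Igfbp3 differed between the libraries in opposite directions by EC subtype. In type H ECs it stood at 197 CPM (186 to 208) in Control and 105 CPM (98 to 112) in Dach1OE (log2 ratio -0.91, -1.03 to -0.78), and in type R ECs at 321 CPM (289.6 to 355) in Control and 583 CPM (545 to 623) in Dach1OE (log2 ratio 0.86, 0.68 to 1.04). The type R value was under 1.5-fold in cells without Adipoq or Lepr UMIs, at 464 and 649.7 CPM (log2 ratio 0.48), without Cxcl12 UMIs as well, at 318 and 351 CPM (0.14), and in Y-linked cells (0.29), whereas the type H value was past it under each of these (-0.95, -1.02 and -0.95). In arterial ECs, where it was most abundant, the interval includes 0 (log2 ratio -0.02, -0.09 to 0.05). The higher Igfbp3 of the whole EC class (149 CPM in Control and 246 CPM in Dach1OE) went with a larger share of arterial cells, 6.38% of ECs in Control and 15.1% in Dach1OE. With subtypes weighted equally its log2 ratio was 0.05. Within Dach1OE, type H ECs with a Dach1 UMI held 52.6 CPM and those without 141 CPM (log2 ratio -1.42, -1.67 to -1.18).

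Igf1 was lower in Dach1OE ECs, at 62 CPM (59.5 to 64.7) in Control and 40.5 CPM (38.5 to 42.7) in Dach1OE (log2 ratio -0.61, -0.71 to -0.52). Arterial ECs held 113 CPM from 241 UMIs in Control and 31.2 CPM from 167 UMIs in Dach1OE (log2 ratio -1.85, -2.15 to -1.56), and type R ECs 138 and 59.7 CPM (log2 ratio -1.21). In sinusoidal ECs the interval includes 0 (log2 ratio -0.13, -0.28 to 0.02). These levels are far below the 1258 CPM of diaphyseal stromal cells, whose markers were also lower in the EC gates of Dach1OE. The part of those markers in the Igf1 ratios was not tested. A UMI of Adipoq or Lepr was absent from 81.0% of Control and 91.3% of Dach1OE ECs. In arterial ECs without such a UMI Igf1 stood at 59.5 and 24.3 CPM (log2 ratio -1.29). Without Cxcl12 UMIs as well, it stood at 69 and 52.5 CPM (-0.39), in 198 Control and 316 Dach1OE cells. Type R ECs without Adipoq or Lepr UMIs held 134 and 40.1 CPM of Igf1. Without Cxcl12 UMIs as well, they held 116 and 57.1 CPM, in 117 and 124 cells. The arterial and type R subsets without Cxcl12 UMIs hold few Igf1 UMIs and have no interval here. No size of a difference was read from them. Sinusoidal ECs with a Dach1 UMI held 24.4 CPM of Igf1 and those without 68.9 CPM. Igfbp6 in ECs rested on 280 and 175 UMIs (8 and 4.9 CPM), little above the 2.86 and 2.84 CPM of haematopoietic cells.

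The whole class held 94.6 and 72.1 CPM of Igfbp2 (log2 ratio -0.39, -0.47 to -0.32), in sinusoidal ECs the interval includes 0 (log2 ratio -0.05, -0.16 to 0.06), and in cycling ECs it was 76.2 and 44.6 CPM (log2 ratio -0.77, -1.02 to -0.52), a ratio of -0.09 with the most likely profile. Thinned sinusoidal ECs held an Igfbp2 UMI in 8.96% and 8.78% of cells. Thus Igfbp2 and Igfbp5, neighbours on the chromosome, had log2 ratios of -0.05 and 1.99 in the same cells. Igfbp4 had log2 ratios between -0.14 in cycling and 0.32 in type R ECs over the whole gates. Without Adipoq or Lepr UMIs it was past 1.5-fold in arterial ECs, at 1918 and 3303 CPM (log2 ratio 0.78), and in type R ECs, at 1541 and 2348 CPM (0.61). Without Cxcl12 UMIs as well, it was under that fold in arterial ECs, at 2379 and 3246 CPM. In type R ECs it was then at 1630 and 2812 CPM (0.79). With the most likely profile it was 0.86 in arterial ECs.

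The difference in Igfbp5 was present in cells of both sexes, which each library pooled. Among sinusoidal ECs with a Xist UMI and no UMI of 4 Y-linked genes, Igfbp5 stood at 808 CPM in Control and 2512 CPM in Dach1OE (log2 ratio 1.64, 1.59 to 1.69). Among those with a Y-linked UMI and none of Xist, it stood at 805 CPM in Control and 3831 CPM in Dach1OE (log2 ratio 2.25, 2.20 to 2.30). The Control levels were nearly equal, and the Dach1OE level was higher in the Y-linked cells. In type H ECs the log2 ratios were 0.66 and 1.33, and for Igfbp3 in type R ECs they were 1.51 and 0.29. Since each library pooled a pair of mice, sex and animal cannot be told apart.

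The stromal class of Dach1OE held 6 of the 8 genes at levels lower by 1.5-fold or more, and within diaphyseal cells the log2 ratios lay between -0.17 (Igfbp3) and 0.32 (Igfbp5). Igf1 stood at 517 CPM in Control and 267 CPM in Dach1OE (log2 ratio -0.95, -0.99 to -0.91), Igfbp3 at 114 and 46 CPM (-1.31), Igfbp4 at 5353 and 2428 CPM (-1.14), and Igfbp5 at 6176 and 3260.2 CPM (-0.92). Igfbp6 (-0.59) and Igfbp7 (-0.76) completed the 6. Igfbp6 was barely past the fold, and it was -0.09 in Xist cells and -1.89 in Y-linked cells. Igf1r (-0.36) and Igfbp2 (-0.51) were under the fold and changed sign under other settings, Igf1r to 0.04 with equal weights of the subtypes and Igfbp2 to 0.24 in Xist cells and 0.12 with equal weights. Over 13821 genes 11.4% were lower and 1.69% higher by that fold, and the median log2 ratio was -0.84 over the 8 genes and -0.19 over all. Scaling the class by TMM factors moved each ratio, those of all other genes included, up by 0.19 and left 4 of the 6 lower by 1.5-fold. The share of all genes lower at that scaling was not taken. Diaphyseal cells, in which Igf1, Igfbp4 and Igfbp5 were highest, made up 40.5% of stromal cells in Control and 18.6% in Dach1OE, while osteoblasts made up 25.3% and 42.9%. Each library was 1 pool of mice, so a difference in cells and one in dissociation cannot be told apart.

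Within diaphyseal cells Igf1 stood at 1258 and 1289 CPM (log2 ratio 0.03, -0.02 to 0.09) and Igfbp4 at 16053 and 16745 CPM (log2 ratio 0.06, 0.04 to 0.08). Igfbp5 was higher there, at 20143 and 25230.4 CPM (log2 ratio 0.32, 0.31 to 0.34), opposite to its direction in the class. Weighting the stromal subtypes equally gave log2 ratios of 0.05 for Igfbp5, -0.18 for Igf1, -0.18 for Igfbp4 and -0.35 for Igfbp3. Metaphyseal cells held 4827 and 3402 CPM of Igfbp4 (log2 ratio -0.50, -0.54 to -0.47) and less Igf1 (-0.32). Osteoblasts held 181 and 118 CPM of Igfbp5 (log2 ratio -0.62, -0.72 to -0.53), a direction that reversed with the most likely profile (0.19), and the diaphyseal markers of that gate stood at 157 and 85.4 CPM. Septoclasts, matrix-resorbing cells at the growth plate, held 2642 and 1877 CPM of Igfbp5 (log2 ratio -0.49, -0.56 to -0.43), with ratios of 0.03 in Xist cells and -1.07 in Y-linked cells. Osteocytes held 526 and 304 CPM of Igfbp4 (log2 ratio -0.79, -0.96 to -0.62). The osteocyte ratio was -0.38 with a stricter gate, and the 7 diaphyseal markers in that gate stood at 555 and 272 CPM. In metaphyseal cells they stood at 1451 and 1075 CPM and in septoclasts at 2553 and 2416 CPM. The chondrocyte markers without Col2a1 stood at 1448 and 559 CPM in septoclasts and 1633 and 540 CPM in osteocytes. In metaphyseal cells the chondrocyte markers stood at 833 and 880 CPM. The part of either set of markers in these ratios was not tested.

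**Figure D5:**
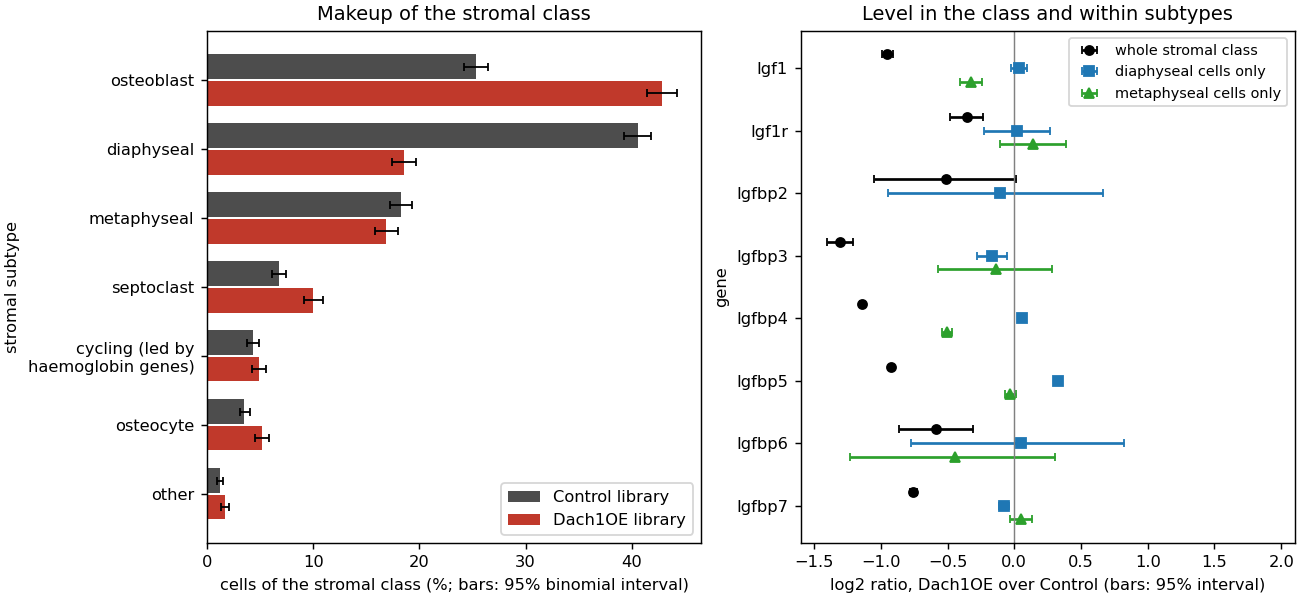
Left, percent of stromal cells in each subtype (95% binomial bars), Control in grey and Dach1OE in red. Right, log2 ratio of levels, Dach1OE over Control, for the whole class (black circles), diaphyseal cells (blue squares) and metaphyseal cells (green triangles), with 95% intervals. The class ratios lie left of 0 while the diaphyseal ratios sit near it, Igfbp5 at 0.32.

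In chondrocytes none of the 8 genes differed by 1.5-fold, where 1.9% of 15070 genes were higher and 4.73% lower. Igf1 stood at 10.5 CPM in Control and 10.8 CPM in Dach1OE and Igfbp5 at 88.8 and 93.2 CPM (log2 ratio 0.07, 0.01 to 0.13). Igfbp7 had the largest log2 ratio among the more abundant members (502 CPM in Control and 620.5 CPM in Dach1OE, log2 ratio 0.31, 0.28 to 0.33) and was highest in upper, Ucma-expressing chondrocytes (1580.2 and 1646 CPM). In mural cells 1 of 7 tested members passed the fold, Igfbp6, on 27 and 29 UMIs (log2 ratio -0.71, -1.52 to 0.10), with 4.38% of 10446 genes higher and 3.78% lower. Pericytes held 2541 and 1468 CPM of Igfbp4 (log2 ratio -0.79, -0.86 to -0.72), while smooth muscle cells held 2776 and 3111 CPM (log2 ratio 0.16, 0.11 to 0.22). The 7 diaphyseal markers in pericytes stood at 2537 and 1863 CPM and the stromal list at 2240.3 and 1450.2 CPM, and their part in the Igfbp4 ratio was not tested. Fibroblasts held 1111 and 1215 CPM of Igfbp6 (log2 ratio 0.13, 0.04 to 0.22) and less Igfbp3 in Dach1OE (50.5 and 27.3 CPM, log2 ratio -0.89, and -0.33 after thinning).

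Of 38 other genes of the pathway, in 6 lists, 34 were tested in ECs, where 2 were higher by 1.5-fold (Igf2 and Igf2r) and 2 lower (Esm1 and Pappa), beside 7.17% and 6.73% of all genes. Igf2r, which takes up IGF2 for breakdown, stood at 47.2 CPM in Control and 72.3 CPM in Dach1OE (log2 ratio 0.61, 0.53 to 0.70). Igf2, the fetal ligand, had 2 UMIs in ECs of Control and 63 UMIs in those of Dach1OE (log2 ratio 4.95, 3.03 to 8.02), and is named after its values were seen. Pappa, the protease of Igfbp4 and Igfbp5, stood at 13.9 and 6.74 CPM. Stromal cells held far more of it, the 7 diaphyseal markers were lower in the sinusoidal, type H, arterial, type R and cycling gates of Dach1OE, and their part in the EC value was not tested. The median log2 ratio of the 34 was -0.05. None of the 11 tested genes of adaptors and intracellular relay, the 5 of the growth hormone side or the 5 candidate receptors of binding proteins passed the fold in ECs. In stromal cells 34 genes were tested, 9 were lower and 1, Mmp9, was higher, beside 11.4% and 1.69% of all genes, with a median log2 ratio of -0.28. The growth hormone side had 3 of 5 genes lower, adaptors and relay 2 of 11, proteases and their inhibitors 2 of 9, other binding family genes 2 of 3, and the ligand and receptor family and the candidate receptors none. Pappa stood at 270.2 and 117 CPM (-1.20) and the growth hormone receptor gene Ghr at 92.2 and 55.1 CPM (-0.74). Within diaphyseal cells these ratios were -0.18 and 0.02. Irs2, the adaptor below the receptor, was lower in the class (-0.85) and in diaphyseal cells (-0.81), and Adamts1 (-0.78 and -0.49) likewise, whereas Stat5a was lower in the class (-0.74) and not in diaphyseal cells (0.32). Esm1, an endocan gene that served as a diaphyseal gate marker, was lower in ECs (-1.08), stromal cells (-1.49) and chondrocytes (-0.95). In mural cells 32 were tested, with Stc1 (0.94), which inhibits PAPP-A, and Timp1 higher, and Irs2 (-0.94), Adamts1 (-0.91) and Pappa lower, beside 4.38% and 3.78% of all genes. In chondrocytes Mmp9 (1.48), a septoclast gate marker, was higher, and Esm1 was the other of 35 tested genes to pass, beside 1.9% higher and 4.73% lower of all genes.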

How the data were processed

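The data were 1 BD Rhapsody whole transcriptome library of Control cells and 1 of Dach1OE cells. The authors deposited UMI counts per cell and gene, made with BD's pipeline for this platform (BD Rhapsody WTA, Version 1.11 per the file headers) on GRCm38, with intronic reads counted, putative cells called and UMIs corrected by recursive substitution (RSEC-adjusted counts). Cells with 500 to 6000 genes and under 25% mitochondrial UMIs were kept. A cell took the class with the most detected markers if it held at least 3 and led the next class by 2. Markers seen in over 75% of cells were not counted. These were Col1a1, Col1a2 and Col2a1, seen in 87.1%, 82.9% and 80.0% of kept Control cells. In kept Dach1OE cells the shares were 92.1%, 87.9% and 87.3%. Cycling cells held at least 3 of the cycling markers. Subtypes took the highest mean marker score with at least 2 markers. No doublet caller was run, and cells holding markers of more than 1 class without that lead were left ungated (11.5% of Control and 13.0% of Dach1OE cells, with all cells that met no class).

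UMIs were summed per gate and scaled to CPM with exact Poisson 95% intervals, and log2 ratios of Dach1OE over Control have exact conditional binomial intervals. Genes with at least 50 UMIs in a class over both libraries were tested against 1.5-fold, a size and not a test. Shares of cells used cells thinned to 1000 UMIs, with exact binomial (Clopper-Pearson) intervals. Likeness between genes was the Pearson correlation of log2(CPM + 10) over 18 gates in each library, among 4247 genes that reached 100 CPM and were in no marker list. Named genes were the 8 members, the 3 most alike genes for each, and genes of the 6 pathway lists past 1.5-fold with at least 200 UMIs, at most 6 a class. The members and lists were chosen with earlier results of these data known. Intervals were tried on simulated class sums drawn as Poisson counts, the error they assume. Spread between cells, mice or libraries was not simulated.

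Depth, filters, gates, scaling (TMM factors of edgeR 4.0.16 in R 4.3.3), subtype weights, sex of the cells and the size of the fold were varied. Removal of shared cell indices, of ECs with Adipoq or Lepr UMIs, and of ECs with Adipoq, Lepr or Cxcl12 UMIs was chosen after seeing the data. The analysis used Python 3.11.15, numpy 2.4.6, scipy 1.17.1, pandas 2.3.3 and matplotlib 3.10.9.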

Additional observations from a re-analysis of the deposited data

Results flagged for a closer look

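Igfbp3 had log2 ratios of Dach1OE over Control of opposite sign in type H ECs (-0.91) and type R ECs (0.86), that is, the only library of each group moved in opposite directions between the subtypes. The type R value was 0.48 without Adipoq or Lepr UMIs, 0.14 without Cxcl12 UMIs as well and 0.29 in Y-linked cells, all under 1.5-fold. Igfbp5 was higher in sinusoidal (1.99), type H (1.02) and cycling ECs (0.99) of Dach1OE and lower in osteoblasts (-0.62), the last reversing to 0.19 with the most likely profile. With 1 library a group, the difference between subtypes was not tested for either gene.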

How the results depend on the processing

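No paired analysis was possible because the labels give 1 library per group and no replicate numbers. Of 1662 log2 ratios recomputed under 13 alternatives, 1134 stayed inside the counting interval of the reported value, 520 moved outside it with the same sign or an uncalled one, and 8 past the fold changed sign. The number of the 8 genes past 1.5-fold in ECs (4) was 1 at 2-fold, 2 in ECs without Adipoq or Lepr UMIs and 1 without Adipoq, Lepr or Cxcl12 UMIs, which left 31.5% and 20.6% of arterial ECs. In stromal cells (6) it was 1 with equal weights of subtypes and 2 at 2-fold. In chondrocytes (0) it was 1 in Y-linked cells and 1 with equal weights. In mural cells (1, Igfbp6) it was 2 with the most likely profile and 0 with a stricter gate, with 1000 to 6000 genes, in Xist cells, in Y-linked cells, after thinning, with equal weights and at 2-fold. The share of all genes past the fold was taken at the main setting alone. The counts under other settings thus have no background beside them. The log2 ratio of Igfbp3 in ECs was -0.21 without Adipoq, Lepr or Cxcl12 UMIs, and that of Igfbp5 in stromal cells was 0.049 with equal weights. Igfbp6 in type R ECs was 0.26 without Adipoq or Lepr UMIs and 1.42 without Cxcl12 UMIs as well. With the most likely profile, Igfbp5 in osteoblasts was 0.19, Igfbp6 in osteocytes -2.67 and Igfbp6 in upper chondrocytes 0.21, and with a stricter gate Igfbp6 in osteocytes was -0.16. The cause was not tested. Igfbp5 in sinusoidal ECs lay between 1.64 (Xist cells) and 2.25 (Y-linked cells) under its 12 alternatives. Few UMIs were counted of Igfbp2 in the gates outside ECs and of Igfbp6 in the gates outside fibroblasts, which limits their ratios there.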
